A study of Saccharomyces cerevisiae with 4 samples.

Results

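The yeast genome sequencing project gave a systematic name to each open reading frame it predicted, and some of these frames were later judged unlikely to encode a protein. Such dubious frames keep names of the form YNL114C (chromosome, arm, number, and W or C for the strand), and many lie on the strand opposite a verified gene. Of the 7126 features in the expression table studied here, 6685 have a systematic frame name. Among these, 679 have no locus tag in the RefSeq annotation of the R64 assembly. Of those, 7 are listed there as synonyms of other genes, which left 672 frames without an entry, 260 of them with a hyphen letter in the name. The comparison set was the 6006 systematic frames that do have an entry.

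Total RNA depleted of ribosomal RNA was sequenced from 4 libraries of Saccharomyces cerevisiae grown at 30 °C in the rich medium YPD to early log phase. The 2 dbp2null libraries came from strain BTY115, with the genotype MATa dbp2::KanMx ura3Δ0 leu2Δ0 his3Δ0 TRP1 met- lysΔ, and the 2 wild-type libraries from MATa his3Δ1 leu2Δ0 met15Δ0 ura3Δ0. The strains share deletions in ura3, leu2 and his3 but differ at other marker loci, so the effect of DBP2 and that of the background cannot be told apart. DBP2 encodes a DEAD-box RNA helicase, an enzyme that remodels RNA structures. It read 2.90 and 1.03 FPKM in the dbp2null libraries, against 213 and 199 FPKM in the wild-type ones.

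A dubious frame has no known product, so RNA counted there is RNA from its DNA, whichever transcript carries it. That can be the messenger of the gene on the other strand, an antisense transcript, an untranslated end of a neighbour, or a transcript of its own. Chromosome ends of yeast are packed in silent chromatin and carry repeated elements, among them the Y' element with its YRF1 helicase genes. The libraries were made with a ScriptSeq kit, and whether the counting used strand is not given in the sources used here. Reads of a frame and of the gene opposite it therefore cannot be told apart.

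Depth had to be read from the FPKM values, which are fragments per kilobase of feature scaled to library depth. Among annotated frames of known length, between 92.6% and 94.6% of the values checked were whole numbers of reads once the scaling was undone. The tolerance was 0.02 reads plus a small part of the read number, and values above 2000 reads were not checked. Values can fall within this tolerance by accident, at a rate that was not estimated. To the nearest 10000, the totals recovered were 40020000 and 46350000 reads for dbp2null replicates 1 and 2, and 33450000 and 31330000 for wild-type replicates 1 and 2. The libraries did not share one definition of length. In 3 libraries a feature of 300 bases was scaled as 103 bases, but in dbp2null replicate 2 as 254 bases. Short frames hence read low in that library. For frames from 200 to under 350 bases the median log2 ratio of dbp2null replicate 2 to replicate 1 was -1.32 in the deposited FPKM and 0.05 after the reads were put back on plain length. For frames of 1500 bases and over the same medians were 0.29 and 0.39. Both scales are given below where they differ, FPKM as deposited being the scale of the main test and the recovered reads per kilobase of plain length, scaled to depth as RPKM, an alternative chosen after seeing the data.

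**Figure D1:**
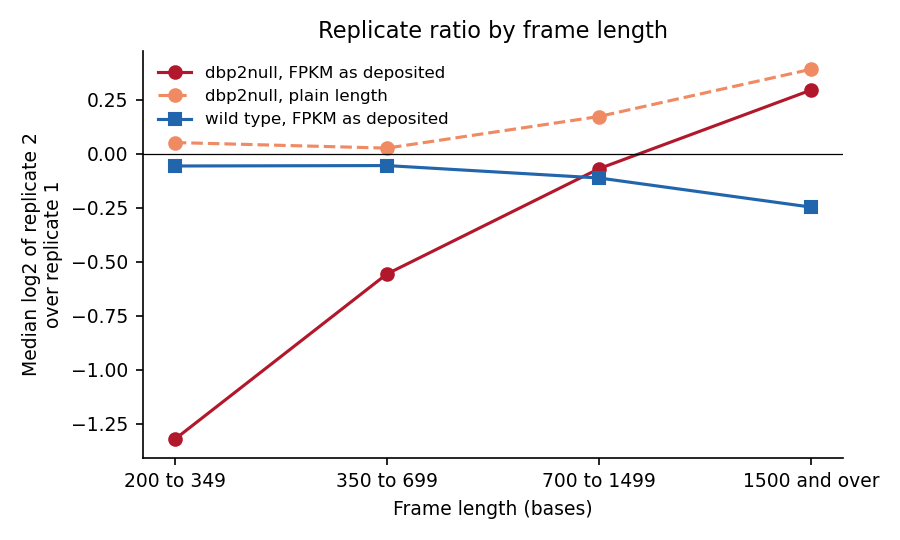
Median log2 ratio of replicate 2 to replicate 1 (vertical axis) by frame length in bases (horizontal axis), for dbp2null in deposited FPKM and on plain length and for wild type. The solid dbp2null line runs from -1.32 for the shortest frames to 0.29 for the longest, while the line on plain length starts at 0.05.

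The files give the 672 frames no position. For 372 of them a single open frame of at least 100 codons lay on the named strand between the neighbouring genes, but this rule was weak for names with a hyphen letter, and a narrower one was chosen after seeing the data. A frame was then placed in the R64 genome where that single open frame was there, or where only 1 open frame there had a length that turned its values into whole reads. Treated the same way, annotated frames of under 200 codons with no hyphen letter were placed rightly in 94.8% of cases by the first procedure, and in 99.6% by the second. For names with a hyphen letter the first was right in only 23.9% and was not used. In all 341 frames were placed, 97 by whole reads and 244 by a single open frame, and 331 were not. YGL041C and YGL042C were placed at the same open frame, as were YCL022C and YCL023C, and YIL080W and YIL082W. These placements are therefore in doubt. Of the placed frames, 208 lay partly over a gene on the other strand, 40 partly over a gene on the same strand, 6 inside an opposite-strand gene and 4 inside a same-strand gene, and 83 overlapped no annotated gene.

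Sequences of 5 frames are shown 5′ to 3′ on the frame's own strand, from the RefSeq R64 genome. The first 3 overlap no annotated gene and are referred to with the genotype comparison, and capitals mark their first and last codons. YNL337W (chrXIV:7165-7419, plus strand) and YMR324C (chrXIII:922202-922444, minus strand) lie at chromosome ends, and YKL162C-A (chrXI:145922-146074, minus strand) does not.
YNL337W: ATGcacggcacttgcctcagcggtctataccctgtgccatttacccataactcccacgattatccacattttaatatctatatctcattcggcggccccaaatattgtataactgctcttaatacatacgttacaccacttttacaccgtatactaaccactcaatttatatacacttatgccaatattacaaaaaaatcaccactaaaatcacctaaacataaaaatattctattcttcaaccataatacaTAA
YMR324C: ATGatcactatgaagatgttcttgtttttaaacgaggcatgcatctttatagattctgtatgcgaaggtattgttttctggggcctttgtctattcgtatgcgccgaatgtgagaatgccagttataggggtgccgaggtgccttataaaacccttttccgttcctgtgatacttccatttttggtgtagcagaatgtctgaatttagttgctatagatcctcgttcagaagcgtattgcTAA
YKL162C-A: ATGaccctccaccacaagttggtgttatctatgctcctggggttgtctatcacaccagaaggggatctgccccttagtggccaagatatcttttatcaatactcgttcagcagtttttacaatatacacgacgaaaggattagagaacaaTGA
The other pair shows stretches of frames that share bases with the gene opposite, and capitals mark the shared bases. YGR265W (chrVII:1021703-1022002, plus strand) runs into MES1, and YPL142C (chrXVI:282704-283003, minus strand) into RPL33A.
YGR265W: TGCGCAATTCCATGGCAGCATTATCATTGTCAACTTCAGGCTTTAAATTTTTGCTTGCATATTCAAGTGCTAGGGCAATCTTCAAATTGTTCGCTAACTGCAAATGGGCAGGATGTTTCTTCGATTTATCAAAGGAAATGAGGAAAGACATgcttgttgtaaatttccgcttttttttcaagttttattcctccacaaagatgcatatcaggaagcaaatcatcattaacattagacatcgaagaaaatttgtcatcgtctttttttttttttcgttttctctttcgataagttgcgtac
YPL142C: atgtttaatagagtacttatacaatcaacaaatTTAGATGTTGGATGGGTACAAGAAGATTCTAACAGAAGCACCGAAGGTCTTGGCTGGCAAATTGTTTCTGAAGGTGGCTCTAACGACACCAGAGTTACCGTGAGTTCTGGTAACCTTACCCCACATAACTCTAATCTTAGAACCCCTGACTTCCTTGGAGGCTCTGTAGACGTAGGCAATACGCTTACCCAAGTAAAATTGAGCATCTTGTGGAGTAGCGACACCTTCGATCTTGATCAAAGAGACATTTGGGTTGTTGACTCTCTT

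Overlap with a gene went with how a frame was measured. To keep the measured values out of the placing, this was counted over the 291 frames with no hyphen letter that have a single open frame of at least 100 codons, each taken at that open frame. Of the 291, 47 were also placed by whole reads, 44 of them at the same frame. Of the values above 0 of the 38 such frames with no overlap, 132 of 148 (89.2%) were whole numbers of reads. Of those of the 205 frames partly over an opposite-strand gene, 47 of 468 (10.04%) were whole. Of the values of 186 genes partly covered by a frame on the other strand, placed by either procedure, 39.5% were whole. For 5265 annotated frames the share was 97.2%. None of these is a partner of the 672 or the gene that a placed frame overlaps most on either strand. Genes overlapped by frames that were not placed could not be left out. Fractions of reads were thus common in overlapping features and rare in those that stand alone.

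Zeros followed the same division. Of the 672 frames, 232 (34.5%) are listed at 0 in all 4 libraries, against 46 of 6006 annotated frames (0.766%). Among the 291 frames with a single open frame, 51 of the 205 over an opposite-strand gene (24.9%) and 7 of the 37 over a same-strand gene (18.9%) are at 0 in every library, and 0 of the 38 with no overlap, which allows a share of up to 7.89%. A listed 0 may stand for an estimate that failed, not for absent RNA. Among the 190 placed frames partly over an opposite-strand gene that is their partner, the share at 0 in all libraries was 27.5% for frames with under 50% of their bases in the gene, 20.7% from 50% to 90%, and 31.0% from 90%.

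**Figure D2:**
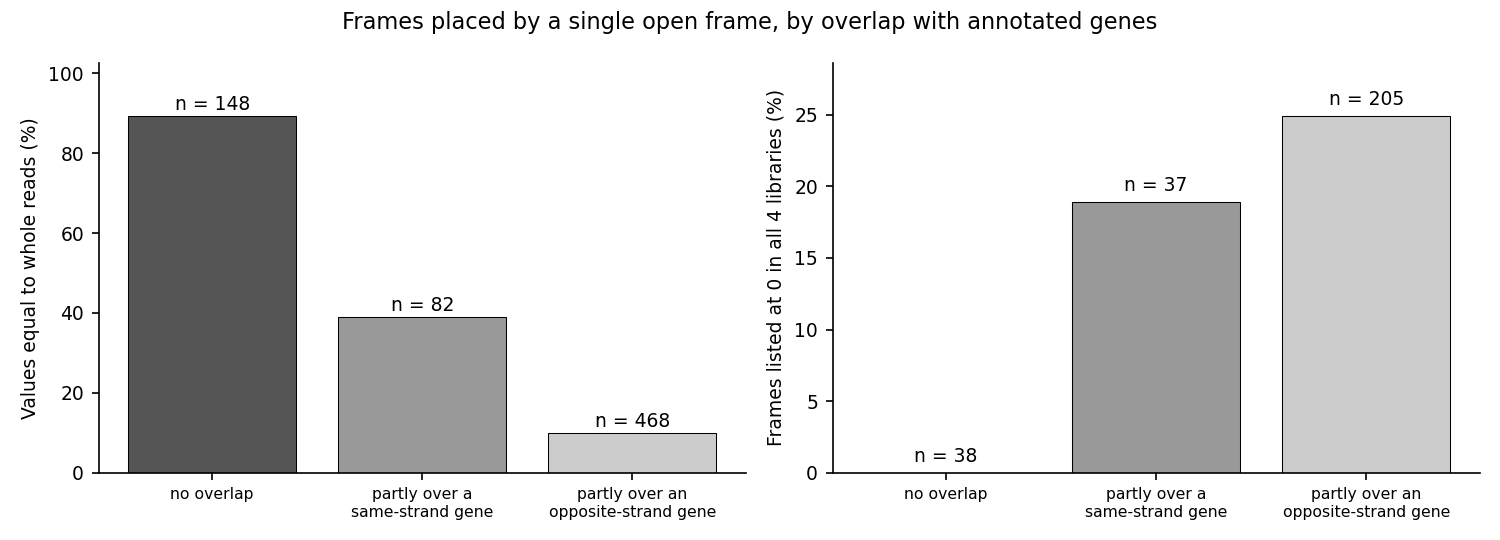
Share of values above 0 that are whole reads (left, n values) and share of frames listed at 0 in all 4 libraries (right, n frames), for the frames that have a single open frame, grouped by overlap with annotated genes. Whole reads make up 89.2% of values without overlap and 10.04% over an opposite-strand gene, and zeros in all libraries occur in 0 of 38 and 51 of 205 frames.

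A frame at 0 in 1 library alone was most often at 0 in dbp2null replicate 2. That was so for 42 frames, against 5 in dbp2null replicate 1, 21 in wild-type replicate 1 and 17 in wild-type replicate 2. In 13 of the 42 the mean over the 4 libraries still reached 100 FPKM. One is YPL142C, shown above, opposite RPL33A, a ribosomal protein gene of the large subunit. Its FPKM were 1170 and 0 with DBP2 deleted and 1733 and 2687 in wild type, while RPL33A held 1430 and 593 against 1506 and 1701. Another is YCR013C, opposite the glycolytic gene PGK1 (phosphoglycerate kinase), with 209 and 0 FPKM in dbp2null against 895 and 874. PGK1 held 445 and 267 FPKM against 1605 and 1703. YHR180W-A, not placed, held 427 and 0 against 1508 and 1610 FPKM. In each of the 3 both dbp2null values lie below both wild-type values, as in 20.7% of all features tested. None passed the limma test in the deposited FPKM, with log2 fold changes of -5.98, -5.93 and -6.24 and adjusted p of 0.259, 0.164 and 0.188. On plain length YCR013C was called lower (log2 fold change -5.66, SE 1.75, limma adjusted p = 0.0349) and YPL142C was not (adjusted p = 0.0754). With a 0 in 1 dbp2null library these folds depend on the pseudocount. PGK1 itself was called lower on plain length (log2 fold change -2.16, limma adjusted p = 0.0016). The difference of YCR013C from PGK1 was not called there (limma adjusted p = 0.245).

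Where a frame and the gene it partly covers were both above 0 in all libraries, their levels ran together. This held for 75 of 190 such pairs, with Pearson's r = 0.78 and Spearman's rho = 0.74 between the log2 mean FPKM of frame and gene. The points share libraries and bases of DNA, so this is a description. YGL041C and YGL042C, placed at the same open frame, are both among the 75, opposite DST1. The median frame stood at 124% of its gene's FPKM, with quartiles of 69.5% and 180%, and 48 of the 75 stood above the gene. The log2 fold changes of frame and gene ran together as well, with r = 0.73 in FPKM and 0.74 on plain length. Of the reads of a pair, the frame held a median of 11.9% to 14.4% in the 4 libraries. This median includes the pairs with the frame at 0, which were 65 to 82 of the 190 in a library. Both were above 0 in 106 to 123 pairs.

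**Figure D3:**
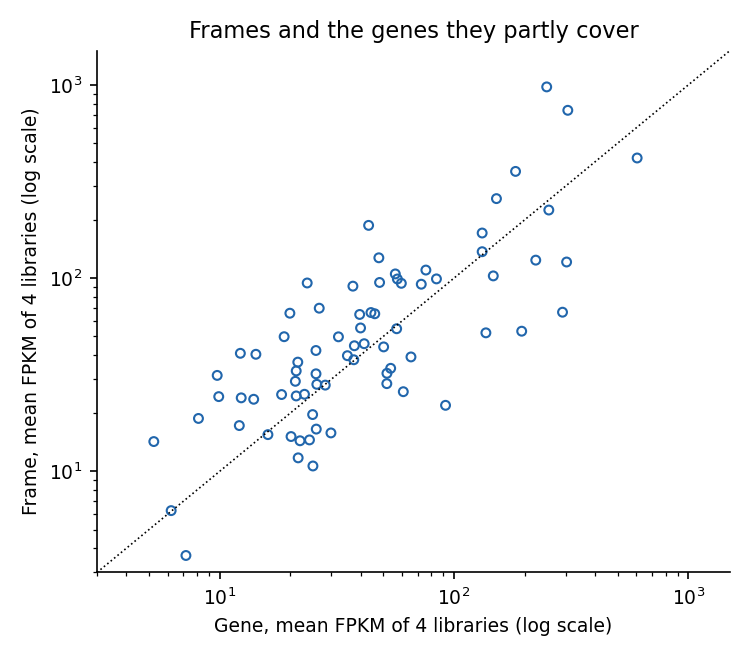
Mean FPKM over 4 libraries of a frame (vertical, log scale) against that of the gene it partly covers on the other strand (horizontal, log scale), 1 circle for each of the 75 pairs above 0 in every library, with the line of equal level. Most circles follow the line, and 48 lie above it.

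In 2 pairs all the reads stood on the dubious frame. YKR035C covers 615 bases of DID2, a gene of the ESCRT machinery that sorts membrane proteins. It held 143 and 127 FPKM in dbp2null against 137 and 120, while DID2 is listed at 0 in all 4 libraries. YKL036C shares 194 bases with AIM26 and held 201, 108, 179 and 176 FPKM in the same order, with AIM26 at 0 in all. A like case without a placed frame is the copper metallothionein gene CUP1, present as tandem copies in which YHR052W-A and YHR054W-A lie. CUP1-1 and CUP1-2 are listed at 0 in all libraries. YHR052W-A held 14523 and 3047 FPKM in dbp2null against 6330 and 6752.5. YHR054W-A held 14526 and 3047 against 6328 and 6752.5 FPKM. The groups overlap in both, and reads of such near-identical copies cannot be assigned to one of them.

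The frames with the 2 highest mean FPKM were not placed. YLR149C-A led with 17912 and 964.5 FPKM in dbp2null against 20537 and 21253. YPL250W-A followed with 10473 and 3672 FPKM against 15812 and 12866. Their lengths are not known here, and FPKM of short features depends most on the length definition. YGL123C-A, next in number to the ribosomal protein gene RPS2, held 5002 and 901 FPKM against 10582 and 9195. YLL044W, next in number to RPL8B of the large subunit, held 2939 and 948 against 3635 and 3243 FPKM. YLR339C, next to the ribosomal stalk gene RPP0, held 1436 and 888 against 2102 and 2358 FPKM. RPP0 itself stood at 1214 and 572 against 2055 and 2256 FPKM. In each of these 5 frames dbp2null replicate 2 is the lowest library. YDR417C held 2635 and 544 against 3441 and 3530 FPKM, and YBR191W-A 1547 and 2.92 against 2326 and 3750 FPKM (log2 fold change -5.24, limma adjusted p = 0.248). In these, too, both dbp2null values lie below both wild-type values, as in 20.7% of all features tested. Among 1131 annotated frames with a mean of 100 FPKM and over, the median log2 fold change was -0.68.

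The comparison of genotypes asks which of the frames differ when Dbp2 is absent. Of the 672 frames, 437 had a mean of at least 1 FPKM and were tested. Limma called 13 of them at a Benjamini-Hochberg adjusted p below 0.05, 8 higher and 5 lower in dbp2null, that is 2.97% against 1.19% of all 6781 features. The background was 0.973% for higher and 0.221% for lower features. Both dbp2null values lay above both wild-type values in 156 of the 437 (49.8% of all features) and below them in 76 (20.7%). Among features above 0 in every library 57 of 272 frames were called, all higher (21.0%, against 18.3% of all such features, 17.1% higher and 1.21% lower). The median log2 fold change of the 437 was 0.26 and that of all features 0.28, which is a description. Of the 13 called frames, 12 are listed at 0 in both libraries of 1 genotype and met the filter through the other genotype alone. Their calls thus rest on listed zeros. In such frames a fitted fold change depends on the pseudocount and bounds nothing (that of YBR126W-B was -7.01 with a pseudocount of 5 and -12.64 with 0.1), so only their levels are given. The call count moved with most settings, to 0 without wild-type replicate 1 and to 186 without dbp2null replicate 1, where 37.0% of all features were called.

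The 5 called lower are at 0 in both dbp2null libraries. YBR126W-B, next in number to the trehalose synthesis gene TPS1, held 527 and 772 FPKM in wild type, while TPS1 held 69.9 and 64.3 FPKM in dbp2null against 63.2 and 63.3. YKL111C, next in number to ABF1, which encodes a general DNA-binding regulator, held 81.3 and 69.2 FPKM. YMR316C-B, next to DIA1, held 52.1 and 41.4 FPKM, and YDR467C, next to the kinase gene PKH3, 35.0 and 29.3 FPKM. YGR259C covers TNA1, the nicotinic acid transporter gene, with 437 of its 441 bases, and held 39.1 and 39.2 FPKM in wild type. Frame and gene together held 80.4 and 96.0 RPM (reads scaled to depth, not to length) in dbp2null and 75.3 and 79.9 in wild type, of which the frame held 0% in both dbp2null libraries and 12.5% and 11.8% in wild type.

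Of the 8 called higher, 7 are at 0 in both wild-type libraries. YGR265W shares 206 of its 411 bases with MES1, the gene of methionyl-tRNA synthetase. It held 144 and 90.03 FPKM in dbp2null. MES1 held 88.6 and 58.3 FPKM there, against 171 and 163. The pair held 212 and 162 RPM in dbp2null and 351 and 335 in wild type, and the frame's share was 14.3% and 20.3% in dbp2null. The others at 0 in wild type stood lower, apart from YFL032W. That frame, next in number to the kinase gene RIM15, held 567 and 266 FPKM in dbp2null. YNL198C held 73.7 and 35.9 FPKM, and YLR400W, next to the bromodomain gene BDF1, 40.9 and 45.8 FPKM. YFR034W-A, next to PHO4, the phosphate response regulator gene, held 38.8 and 31.3 FPKM. YIL141W held 35.2 and 38.9 FPKM and YJR038C 32.1 and 49.0 FPKM. YDL196W alone among the called frames is above 0 everywhere, with 74.4 and 83.9 FPKM in dbp2null against 18.3 and 11.2 (log2 fold change 2.38, SE 0.28, limma adjusted p = 0.0481), and it overlaps no annotated gene. Its reads numbered 390 and 1105 against 80 and 46.

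Whether a frame differs from its partner gene was tested as the change in log2(frame) minus log2(gene). The partner was the gene overlapped on the other strand for 196 of the 672 frames and the gene next in number for 397, and 79 had none. Of 376 pairs with a frame from the 672, 16 were called (4.26%, against 1.29% of all 4484 pairs), 7 higher (background 0.691%) and 9 lower (background 0.602%), and 15 of the 16 frames are at 0 in both libraries of 1 genotype. The 8 smallest adjusted p-values belonged to YBR126W-B, YGR265W, YMR316C-B, YKL111C, YDR467C, YGR259C, YBL053W and YLR400W, of which YGR265W, YGR259C and YBL053W have a partner by overlap and the other 5 by number. Each of these 8 frames is at 0 in both libraries of 1 genotype, so the size of its difference depends on the pseudocount, and the call gives no measure of a change beyond the listed zeros. YBL053W, which shares 331 bases with the histone acetyltransferase gene SAS3, held 24.3 and 31.1 FPKM in dbp2null and is listed at 0 in both wild-type libraries. By itself it missed the threshold in the deposited FPKM (limma adjusted p = 0.0513) and passed it on plain length (adjusted p = 0.0074). On plain length 34 of 234 pairs were called (14.5%, against 22% of all pairs), 26 higher (background 11.4%) and 8 lower (background 10.6%). When features at 0 in any library were left out, 1 of 231 pairs was called (1.42% of all such pairs). When wild-type replicate 1 or 2 was left out, limma called 0 pairs, and 75 and 51 of the 376 had an unadjusted p below 0.05, as had 13.3% and 8.43% of all pairs.

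Frames were also counted by the pathway of the partner gene, beside 1.19% called and 37.9% at an unadjusted p below 0.05 among all features. Of 16 frames with a ribosomal protein gene as partner, 6 are at 0 in all libraries. Limma called 0 of the 10 tested (1 at an unadjusted p below 0.05), and their median log2 fold change was -1.63, that of all features being 0.28. Level was not matched here. With a mean of 100 FPKM and over, the median was -1.15 for 78 of the 672 frames and -0.68 for 1131 annotated frames. On plain length 1 of 7 frames beside ribosomal protein genes was called lower, against 9.05% of all features. That frame, YPL197C, chosen after its values were seen, shares 360 bases with RPL7B and held 84.2 and 13.8 FPKM in dbp2null against 138 and 259. Of 5 beside glycolysis or fermentation genes, limma called 0 of the 3 tested (0 at an unadjusted p below 0.05). Among them, YAL037C-B beside the pyruvate kinase gene CDC19 held 493 and 167 FPKM in dbp2null against 640 and 799, and CDC19 1046.5 and 616 against 2485 and 2508. YOL085W-A beside ADH1 went the other way, with 36.4 and 19.9 FPKM against 14.8 and 3.39 (log2 fold change 1.75, limma adjusted p = 0.142). ADH1 itself held 1303 and 917 FPKM in dbp2null against 5456 and 6353. On plain length the single one of these 5 frames tested, YCR013C, was called lower, as was its partner PGK1, as described above. Of 4 beside stress genes, 3 were tested and 1, YBR126W-B, was called lower. YDL023C, which covers 257 bases of the glycerol synthesis gene GPD1, stood at 78.2 and 22.1 against 173 and 123 FPKM. It was the single stress frame tested on plain length and was called lower there (log2 fold change -1.19, SE 0.27, limma adjusted p = 0.0136). GPD1 itself stood at 51.1 and 42.4 FPKM in dbp2null against 66.6 and 69.0. The difference of YDL023C from GPD1 was not called on plain length (limma adjusted p = 0.124). Of 4 beside termination, R-loop or helicase genes, 3 are at 0 in all libraries, all beside RNH203, a subunit gene of RNase H2. The fourth, YDR278C beside RNH202, held 2054, 0, 1227 and 945 FPKM and shares 72 bases with an annotated non-coding RNA gene on its own strand.

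Next to DBP2 itself lie YNL114C and YNL109W. YNL114C shares 285 bases with RPC19, a subunit gene of RNA polymerases I and III, and held 279 and 209 FPKM in dbp2null against 253 and 159 (log2 fold change 0.26, SE 0.44, limma adjusted p = 0.672). The lower dbp2null value falls between the wild-type values, so the groups overlap. On plain length the groups part, with 129 and 183 RPKM in dbp2null against 117 and 73.3, and limma called the frame higher (log2 fold change 0.72, SE 0.25, adjusted p = 0.0494). Frame and RPC19 together held 115 and 104 RPM in dbp2null against 112 and 102 in wild type. The frame's share of these was 41.8% and 65.3% in dbp2null against 38.8% and 26.7%. RPC19 itself stood at 293 and 94.3 FPKM against 300 and 328. YNL109W held 51.1 and 26.3 against 60.8 and 49.2 FPKM, with groups that overlap (log2 fold change -0.56, limma adjusted p = 0.319). It lies partly over YNL108C on the other strand, with 50 of its 546 bases free of annotated genes.

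The 83 frames that overlap no annotated gene were described by their reads, and in 17 of them at least 50% of their 50-base words occur elsewhere in the genome. Of the 83, 79 were placed by whole reads, which needed values above 0 in at least 3 libraries, so they are not a sample of all such frames. On plain length 43 of the 83 were called higher in dbp2null by limma and 0 lower (0 lower at an unadjusted p below 0.05), where 31.2% of all 6235 features of known length were called higher and 9.05% lower. At an unadjusted p below 0.05 in the deposited FPKM, 47 of the 83 were higher, against 32.5% of all features, and limma called 1 of them, YDL196W. The count of 43 was 61 and 8 without dbp2null replicates 1 and 2, and 36 and 23 without wild-type replicates 1 and 2, where 40.98%, 6.32%, 13.9% and 6.496% of all features were called higher. Over all 278 placed and tested frames, 105 were called on plain length (37.8%), near the 40.2% of all features.

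Position along the chromosome divided these frames. Of the 28 within 20000 bases of a chromosome end, a distance chosen after the values were seen, 27 were called higher in dbp2null on plain length, with a median log2 fold change of 3.28. Of the other 55, 16 were called higher, with a median of 1.25, and 0 lower. Those 16 became 33 and 4 without dbp2null replicates 1 and 2, and 10 and 4 without wild-type replicates 1 and 2. Annotated frames showed the same division: 209 of 253 near an end were called higher (82.6%, median 2.15) and 1645 of 5704 elsewhere (28.8%, median 0.46). All 28 frames stood higher in both dbp2null libraries than in both wild-type libraries, as did 62.9% of all features (18.6% stood lower). With a mean from 10 to 100, all 19 frames near an end were called higher, and 196 of 231 annotated frames near an end (84.85%). In the deposited FPKM limma called 0 of the 28, of which 27 had an unadjusted p below 0.05, and the median was 3.07.

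**Figure D4:**
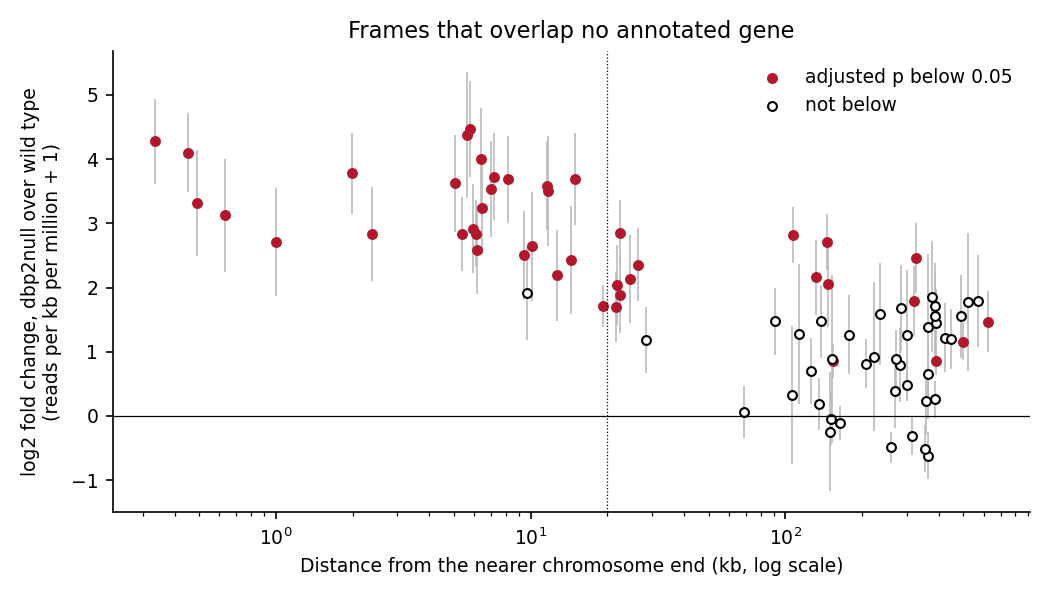
Log2 fold change of dbp2null over wild type (RPKM on plain length, plus 1; bars are standard errors) against distance from the nearer chromosome end in kilobases (log scale), for the 83 frames that overlap no annotated gene. The dotted line stands at 20 kb, and filled circles are called at adjusted p below 0.05, 27 of 28 to its left and 16 of 55 to its right.

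The reads behind some of these end frames were as follows. YBL109W, at the left end of chromosome II (5790 to 6125), held 666 and 3773 reads in dbp2null and 96 and 17 in wild type. In RPKM on plain length that is 49.5 and 242 against 8.54 and 1.61 (log2 fold change 4.47, SE 0.75, limma adjusted p = 0.0057 on plain length). YKL225W, whose frame starts 450 bases from the left end of chromosome XI, held 397 and 1799 reads in dbp2null and 44 and 15 in wild type. YHR217C held 1384 and 12702 reads against 385 and 44, and YDR544C, with the helicase gene YRF1-1 as partner, 633 and 4063 against 137 and 25. YRF1-1 itself held 40.6 and 194 FPKM in dbp2null against 14.4 and 8.85. YNL337W and YMR324C, printed above, held 255 and 1114 against 48 and 9 reads and 261 and 852 against 40 and 7. YAL069W, 334 bases from the left end of chromosome I, stood at 38.9 and 127 RPKM on plain length against 5.93 and 0.961. These 7 frames, and YKR035C, YKL036C, YKL162C-A and YGR139W, were chosen after their values were seen.

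The replicates of these frames also stood apart. In all 28, dbp2null replicate 2 was above replicate 1, by a median of 3.23 times, and wild-type replicate 1 above replicate 2, by a median of 5.06 times in the 26 with a value above 0. Without dbp2null replicate 2, 4 of the 28 were called on plain length and the median was 2.32, where 11.7% of all features were called (6.32% higher and 5.37% lower). Without wild-type replicate 2, 19 were called higher (median 2.43; 6.496% of all features), and without wild-type replicate 1, 26 (13.9% of all features). Without dbp2null replicate 1 all 28 were called higher (median 4.29; 40.98% of all features). With each library centred on its median 21 were called higher, as were 14.4% of all features. In 13 of the 28 at least 50% of their 50-base words occur elsewhere in the genome, and reads of repeats cannot be assigned to one place. Of the 15 others 14 were called, with a median of 3.53.

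Level also went with the difference. Annotated frames with a mean from 1 to 10 on plain length had a median log2 fold change of 1.58, and 168 of 392 were called higher (42.9%). With a mean of 100 and over their median was -0.52, and of 785 such frames 71 were called higher and 314 lower. Among MATalpha-specific genes, which should be silent in these MATa strains, SAG1 stood at 17.3 and 29.9 RPKM on plain length in dbp2null against 7.16 and 7.17, and MF(ALPHA)2 at 11.1 and 17.7 against 7.17 and 5.36. STE3 ranged from 2.30 to 15.004 and MF(ALPHA)1 from 0.480 to 3.64. In all 4 genes both dbp2null values lie above both wild-type values, as in 62.9% of all features on plain length. The 5 MATa-specific genes were above 0 in all 4 libraries. STE2 ranged from 150 to 242 RPKM on plain length, STE6 from 46.3 to 68.0, MFA1 from 33.8 to 86.5, MFA2 from 211 to 1329 and BAR1 from 23.3 to 59.9. In MFA2 and BAR1 both dbp2null values lie below both wild-type values (18.6% of all features), and in STE6 above them. Whether a general rise of weak signals has a part in the end frames was not tested.

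Frames away from the ends held smaller differences. YDL196W and YKL162C-A were among the 16 called. YKL162C-A, printed above, with the cell wall gene PIR3 as partner by number, held 246 and 322 reads in dbp2null and 50 and 15 in wild type. On plain length that is 40.2 and 45.4 against 9.77 and 3.13 (log2 fold change 2.71, SE 0.44, limma adjusted p = 0.0051), while in the deposited FPKM it read 487 and 64.9 against 118 and 37.9 (log2 fold change 1.40, adjusted p = 0.399). YGR139W, next in number to the polyamine transporter gene TPO2, held 194 and 208 reads against 17 and 20, and TPO2 itself held 46.1 and 97.9 FPKM against 13.7 and 10.1.

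**Figure D5:**
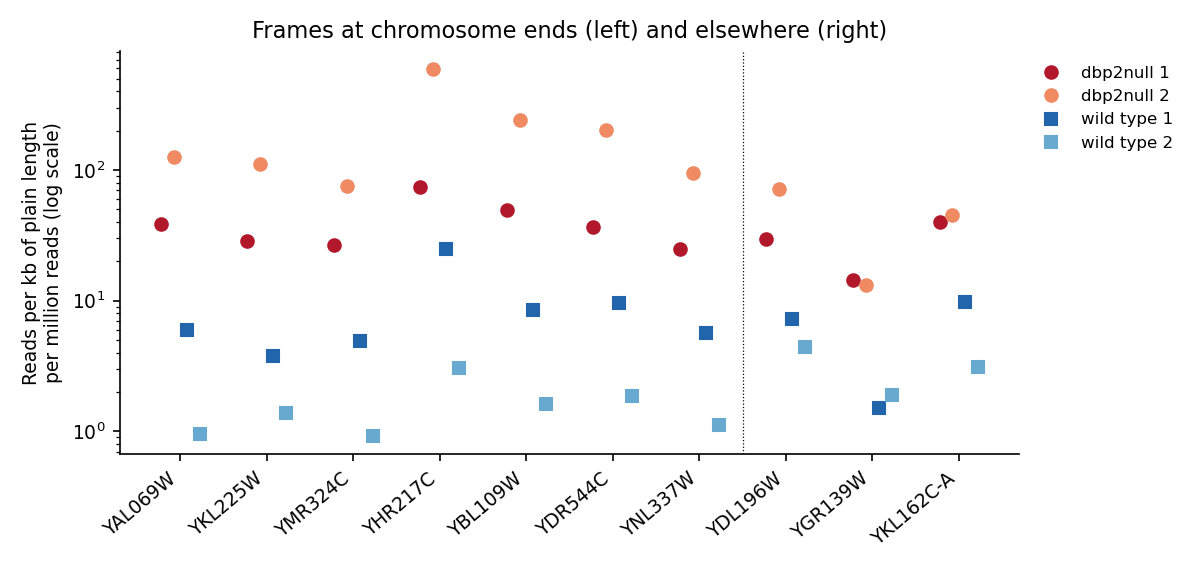
RPKM on plain length (vertical, log scale) in each library for 7 frames near chromosome ends (left of the dotted line) and 3 elsewhere. Circles are dbp2null and squares wild type. The 10 frames were chosen after their values were seen. In each of them both circles stand above both squares, as in 62.9% of all features on plain length.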

How the data were processed

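Ribosome-depleted total RNA of 2 dbp2null and 2 wild-type cultures was sequenced, and the second library of each is called a biological replicate in the study's design text. The FPKM values were deposited by the authors, and per the submitters' processing notes CASAVA, TopHat, Cufflinks and edgeR were used on the sacCer3 build, with versions, annotation and strand setting not given in the sources used here. Blank rows (3) were left out.

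Features averaging 1 FPKM or more were tested with limma 3.58.1 (R 4.3.3) with a trend on log2(FPKM + 1) over all 4 libraries, two-sided, with Benjamini-Hochberg adjustment over all features and a threshold of 0.05. A fold change on this scale understates that of low features. Pairs were tested likewise on the difference of log2 values. With 2 libraries against 2, an exact permutation test of a single value cannot go below p = 0.333.

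Whole reads were recovered by undoing the scaling: the effective length was that of fragments of 200 ± 80 bases (mean ± SD) in 3 libraries, and the length less 46.0 bases in dbp2null replicate 2. Both were searched over the same range of read numbers in every library. Intervals and limits cover counting error only.

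Named frames are those called, the 10 highest in level, the 8 largest rises and falls without group overlap from a mean of 10 FPKM, the 8 smallest adjusted p against the partner, numbers within 3 of DBP2, and partners in the pathway lists. Members and lists were chosen with earlier results of these data known. Alternatives were other pseudocounts, filters and scalings, a replicate block, plain length, and leaving out each library.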

Additional observations from a re-analysis of the deposited data

How the results depend on the processing

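The number of frames called by limma, 13 of 437, moved with the processing (percentages are shares of all features called). It was 4 with a pseudocount of 0.1 (0.118%), 49 with a pseudocount of 5 (6.27%) and 22 of 672 without a filter (0.674%). It was 4 of 357 from a mean of 10 FPKM (0.200%), 5 with median centring (0.192%) and 3 with quantile normalization (0.0737%). Among features above 0 in every library it was 57 of 272 (18.3%). On plain length it was 105 of 278 (40.2%), and 72 there with median centring (29.9%). Leaving out 1 library gave 0 to 186 in the deposited FPKM. On plain length it gave 166 and 37 without dbp2null replicates 1 and 2, and 106 and 69 without wild-type replicates 1 and 2. Without wild-type replicate 1, 0 were called by limma in the deposited FPKM, with 145 at an unadjusted p below 0.05.

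The 16 partner differences became 34 on plain length, 1 among features above 0 in every library, and 0 to 176 with a library left out. On plain length they were 113 and 49 without dbp2null replicates 1 and 2 and 42 without wild-type replicate 1. With the replicate number as a block, 4 frames and 9 pairs were called, where 0.236% of all features and 0.379% of all pairs were called. With crossed numbers these were 201 of 437 frames and 27 of 376 pairs, where 39.3% of all features and 4.8% of all pairs were called. Deviations of same-numbered libraries correlated at r = -0.11, which does not settle whether they share a batch. No pairing is stated in the sample titles.

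The median log2 fold change of the frames less that of all features, -0.02, was 0.38 on plain length with or without centring. It was -0.32 and 0.26 without dbp2null replicates 1 and 2, and on plain length 0.39, 0.36, 0.34 and 0.37 without each library in turn. A single open frame was found for 372 frames at 100 codons and 234 at 75. The 27 end frames called on plain length were 0 in the deposited FPKM (27 at an unadjusted p below 0.05 in limma), 14 among the frames with few repeated words, and 4 to 28 with a library left out.

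In the deposited FPKM YKL162C-A ranged from -0.05 (without dbp2null replicate 1) to 2.84 (without dbp2null replicate 2) with a library left out. YNL114C was -0.07 with median centring, and from -0.07 (without wild-type replicate 2) to 0.60 with a library left out. On plain length it was 0.72 and called. Of 637 recomputed values for single frames and pairs, 440 kept direction and side of the threshold, 92 were no longer past it, 102 passed it only there and 3 turned. The causes were not tested.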
